A study of Saccharomyces cerevisiae with 72 samples.

Results

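The comparison described here is the effect of adding inducible *RIM4* to diploid budding yeast that lack *KAR4* and already carry inducible *IME1*, at 2, 4, 6 and 8 h of sporulation. Its members were chosen by label alone: *kar4*Δ/Δ with both Pzev-*IME1* and Pzev-*RIM4*, minus *kar4*Δ/Δ with Pzev-*IME1* only, at the same hour. They are 16 of the 72 libraries of the series, 2 replicates in each of 8 conditions. The series followed S288c diploids, wild type or *kar4*Δ/Δ, by mRNA sequencing at 0, 2, 4, 6, 8 and 12 h, with endogenous promoters, with Pzev-*IME1*, or with Pzev-*IME1* and Pzev-*RIM4*. Pzev is an estradiol-responsive promoter. It is bound by an artificial activator, Z3EV, that is made from an *ACT1* promoter in these strains. Estradiol was added when cells were moved to potassium acetate sporulation medium. In the strain list of the study, the *kar4*Δ/Δ Pzev-*IME1* diploid has 1 copy of the activator and 1 Pzev-*IME1* allele, its *kar4* alleles are replaced by *KANMX* and *URA3*, and it is heterozygous for *his3* and *met15*. The *kar4*Δ/Δ Pzev-*IME1* Pzev-*RIM4* diploid has 2 copies of the activator and 1 allele of each Pzev promoter, its *kar4* alleles are replaced by *LEU2* and *URA3*, and no *his3* or *met15* allele is listed. Both diploids are *ura3* and *leu2* on both homologs, the activator being inserted at *leu2*. The list does not say which diploids were sequenced. Activator copy number, *LEU2* against *KANMX* at *kar4*, and the *his3* and *met15* alleles go with the presence of Pzev-*RIM4*, so their effects cannot be told apart from it.

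Each condition is available as 1 value per gene, the authors' log2 fold change relative to the wild type strain without Pzev promoters at 0 h, with the 2 replicates already combined. A level below is that log2 fold change. A difference is the level with both promoters minus the level with Pzev-*IME1* alone, also on the log2 scale, so that 1 is 2-fold. There is no replicate error, no count and no depth in these values, so no test could be made, and a gene is counted as higher or lower where its difference is at least 2-fold in that direction. The hours are serial values of the same strains and not replicates. Where all values of a strain are said to lie above or below those of the other strain, the share of all genes that do so was not counted. Within the comparison the levels of 6496 genes had SDs from 0.96 to 1.18 per condition. The Pzev-*IME1* column at 4 h is stored to a median of 7 decimals, where the other 7 columns compared have 15. Whether that column was made differently was not tested.

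Rim4p is a meiosis-specific RNA-binding protein that represses the translation of a set of mRNAs and is also needed for early meiotic gene expression. Ime1p is the transcription factor that starts the meiotic program, in part through the promoter element URS1, and Ndt80p is the transcription factor that later turns on the middle genes for the divisions and spore formation. Kar4p, the yeast relative of METTL14, is a partner of the mRNA methylation complex and has a separate role in mating. The question of the comparison is which transcripts differ when *RIM4* is supplied to *kar4*Δ/Δ cells in which *IME1* is already induced.

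The promoter letters that recur among the genes described below are shown here with 10 bases on either side where the 500-base window before the start codon allows. They are given for 4 early meiotic genes, 4 iron genes, 3 sulfate genes and 2 daughter-cell genes, because these groups differed together and share the letters. The same letters were absent from the windows of *RED1* and *SPO11* among the early genes, *FRE1* and *CTR1* among the metal genes, *SEO1* and *CTS1*, and no letters were chosen for the ribosomal protein genes, whose differences were the most repeated. Each line reads 5′ to 3′ on the strand of the gene, from the RefSeq R64 genome, with the match nearest the start codon in capitals.
IME2, chrX:220925-220950, URS1 core GGCGGC: gcgagacttcGGCGGCaaaaagccac
MEI5, chrXVI:321741-321766, URS1 core on the other strand: aaaagtattaGCCGCCcaaacttcta
REC8, chrXVI:571547-571572, URS1 core: acttgacttcGGCGGCaaaccaatat
HOP1, chrIX:226421-226446, URS1 core: ttttaacctgGGCGGCtaaattgtac
FIT2, chrXV:1059390-1059416, Aft1p letters TGCACCC on the other strand: gaatctaactGGGTGCAgtataattag
ARN2, chrVIII:10644-10670, Aft1p letters on the other strand: atcagaaaatGGGTGCAgttcttagtt
FTR1, chrV:461899-461925, Aft1p letters: cgtagatgaaTGCACCCgatttctaag
FET3, chrXIII:388561-388587, Aft1p letters: tcttcaaaagTGCACCCatttgcaggt
MET17, chrXII:732232-732257, Cbf1p letters CACGTG: tggcaaatggCACGTGaagctgtcga
MET5, chrX:683574-683599, Cbf1p letters: tgaatttcatCACGTGcgtattatct
MET3, chrX:455869-455894, Cbf1p letters: ccagaaaagtCACGTGtaattttgta
EGT2, chrXIV:23841-23866, Ace2p and Swi5p letters ACCAGC on the other strand: tgagtaagatGCTGGTttgatgctaa
DSE2, chrVIII:385238-385263, Ace2p and Swi5p letters: cttcaagtaaACCAGCaatatcgact

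The labels were first checked against the altered genes. *KAR4* was far below the wild type reference in all 8 conditions, at levels of -4.96, -5.05, -4.83 and -5.13 with Pzev-*IME1* and of -6.79, -6.88, -7.47 and -7.89 with both promoters. The *kar4* alleles of the diploids differ, and the lower values belong to the strain with Pzev-*RIM4*. *RIM4* was at 2.05, 1.48, 1.99 and 2.31 with Pzev-*IME1* alone and at 4.35, 4.37, 4.37 and 4.31 with both promoters. Every *RIM4* value with Pzev-*RIM4* was above every value without it, and the mean difference was 2.39, a ratio of 5.24. At 0 h the *RIM4* levels were 0.25 and 0.23. *IME1* was at 3.28, 3.19, 3.29 and 3.35 with Pzev-*IME1* and somewhat higher with both promoters, at 3.52, 3.57, 4.00 and 3.86. The *IME1* differences of 0.25 to 0.70 stayed under 2-fold.

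Of the genes used to build the strains, *URA3* had a value in both *kar4*Δ/Δ Pzev strains, at 7.54 to 7.77 with Pzev-*IME1* and at 6.49 to 6.78 with both promoters. *LEU2* had values of 7.64 to 7.96 with Pzev-*IME1* and of 6.67 to 7.73 with both, although the first of these diploids is listed with no *LEU2* replacement of *kar4*. *HIS3*, listed as heterozygous in the first diploid, was higher with both promoters at 2 h by 1.29 and then lower, at -1.23, -1.11 and -1.35. Markers of haploid cells differed little, with list medians of 0.09, 0.13, 0.21 and 0.28 and at most 2 of 21 genes higher. Genes of proliferating cells differed strongly and in changing directions, as described below.

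At 2 h, 485 genes (7.47% of 6496) were at least 2-fold higher with *RIM4* added and 727 genes (11.2%) were lower. At 4 h, 372 genes (5.73%) were higher and 435 (6.7%) lower. At 6 h, 249 (3.83%) were higher and 365 (5.62%) lower. At 8 h, 248 (3.82%) were higher and 446 (6.87%) lower. The list counts given below are to be read against these shares. The median difference over all genes lay between -0.01 and 0.03 at these hours. Before induction, at 0 h, the strains already differed at 164 higher genes (2.52%) and 82 lower genes (1.26%). Most differences did not last: 620 genes were higher at exactly 1 of the 4 hours and 30 at all 4, while 650 were lower at exactly 1 and 91 at all 4. There were 120 genes that were higher at one hour and lower at another.

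Early meiotic genes lay higher with *RIM4* added, and in most early lists the sizes were largest at 4 h. *IME2*, which encodes the kinase that promotes premeiotic S phase, was at 3.57, 3.70, 4.45 and 4.68 with Pzev-*IME1* and at 4.98, 5.31, 5.36 and 5.71 with both promoters. Its values with both promoters all exceeded those without Pzev-*RIM4*, and the mean difference was 1.24. That mean fell under 2-fold, to 0.65 and 0.69, when the columns were quantile-normalized or set to the same spread. The difference of *IME2* was 1.41 and 1.62 at 2 and 4 h and 0.91 and 1.03 at 6 and 8 h.

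The meiotic chromosome axis and cohesin genes were the most uniform of the early lists. In RNA of whole cultures, more cells in meiosis and more RNA per meiotic cell cannot be told apart. None of the 13 genes was at least 2-fold higher at 2 h, and 12 were higher at 4 h, 8 at 6 h and 9 at 8 h, with none lower at any of these hours. The list median of the difference was 0.50, 1.75, 1.37 and 1.28, against -0.01, 0.03, -0.01 and 0.00 over all genes. *REC8*, the meiotic cohesin subunit, was at 2.89, 2.22, 3.02 and 3.80 with Pzev-*IME1* and at 3.27, 4.42, 4.43 and 4.99 with both promoters. *REC8* therefore stood 0.38 above at 2 h and 2.20 above at 4 h. *MEK1*, the kinase that steers recombination to the homolog, had the highest mean difference of the axis list, 1.66, with 2.81 at 4 h. *SMC3*, a cohesin subunit used in mitosis as well, had differences of 0.48, 2.25, 1.97 and 1.55. *RED1*, an axis protein, had 0.86, 1.83, 1.37 and 1.36, and *NDJ1*, which tethers telomeres in prophase, had 0.93, 2.35, 1.33 and 1.28.

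Other recombination genes followed the same order of hours with smaller sizes. Of 16 synaptonemal complex and crossover genes, 0, 9, 4 and 6 were higher at 2, 4, 6 and 8 h, with medians of 0.07, 1.32, 0.70 and 0.76. *MSH5*, a crossover factor, was highest in this list after *SPO22*, at 0.58, 2.12, 1.41 and 1.32. *SPO22*, another member of the crossover group, had 0.70, 2.16, 1.50 and 1.33. *ZIP1*, the central element of the synaptonemal complex, had 0.89, 1.42, 0.97 and 1.26.

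Of 12 genes for double-strand break formation and processing, 0, 7, 2 and 3 were higher, with medians of 0.33, 1.08, 0.50 and 0.68. *SAE2*, which helps to process the break ends, had differences of 0.84, 1.48, 1.42 and 1.25. *MEI4*, needed to form the breaks, had 0.84, 1.57, 0.83 and 1.27. *SPO11*, which encodes the protein that makes them, was above 2-fold at 4 h alone, with 0.37, 1.08, 0.36 and 0.67.

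The strand exchange list moved less, with medians of -0.15, 0.77, 0.26 and 0.39 over 14 genes, and with 0, 4, 1 and 1 of them higher. Partners within it differed. *MEI5*, which with Sae3p assists the meiotic recombinase, was at 6.34, 5.75, 6.69 and 7.37 with Pzev-*IME1* and at 6.87, 7.90, 7.68 and 8.35 with both promoters. *SAE3* was at 6.07, 5.56, 6.04 and 6.39 with Pzev-*IME1* and at 5.75, 6.01, 5.69 and 6.06 with both, so the mean difference was 1.16 for *MEI5* and -0.14 for *SAE3*. *HED1*, an inhibitor of the mitotic recombinase in meiosis, had 0.95 at 4 h and between -0.04 and 0.35 at the other hours. *ECM11* and *GMC2*, which act together in assembly of the synaptonemal complex, were below the strain without Pzev-*RIM4* at 2 h, by -0.13 and -0.56, and above it at 4 h, by 1.59 and 1.67.

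Among 41 DNA replication genes, 13 were higher at 4 h, 5 at 6 h and 4 at 8 h, and 2 were lower at 2 h. Over all genes 5.73%, 3.83% and 3.82% were higher at 4, 6 and 8 h, and 11.2% were lower at 2 h. *RNR1*, the large subunit of ribonucleotide reductase, had differences of 0.36, 0.12, 1.22 and 1.34. *POL1*, the catalytic subunit of polymerase alpha, had 0.15, 1.26, 1.06 and 1.12. At 0 h these genes already stood apart, with *RNR1* at -4.46 with Pzev-*IME1* and -1.50 with both promoters, and *POL1* at -3.64 and -2.08. With the trend of the differences with gene length removed, 3, 0 and 1 of the 41 genes were higher at 4, 6 and 8 h.

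Lists of Ime1p-dependent genes that the study drew from its microarrays gave the same picture. Since the study chose them from related experiments, they are no independent evidence of direction. Of 9 first-wave genes, 0, 7, 4 and 4 were higher at the 4 hours. Of 38 second-wave genes, 4, 25, 11 and 13 were higher, with medians of 0.36, 1.42, 0.75 and 0.75 and none lower. *RRT7*, a first-wave gene, had differences of 0.02, 2.65, 1.20 and 1.73. Wild type with the same promoters had larger medians for the second wave, between 1.71 and 2.07. The wild type strains were already apart in this list before induction, with a 0 h median of 1.65, where *kar4*Δ/Δ had -0.18. How the genotypes differ was not tested.

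The size at 4 h depended on both strains. With Pzev-*IME1* alone, 34 of 38 second-wave genes were lower at 4 h than at 2 h, as were 12 of 13 axis and cohesin genes, where 55.6% of all genes were. With both promoters 4 of 38 and 0 of 13 were lower at 4 h than at 2 h, where 48.0% of all genes were. The 4 h level with both promoters was at or above the 8 h level with Pzev-*IME1* alone for all 13 axis and cohesin genes, 15 of 16 synaptonemal complex and crossover genes and 28 of 38 second-wave genes, against 48.3% of all genes. At 2 h this held for 1, 4 and 16 of these genes, against 47.3% of all.

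**Figure D1:**
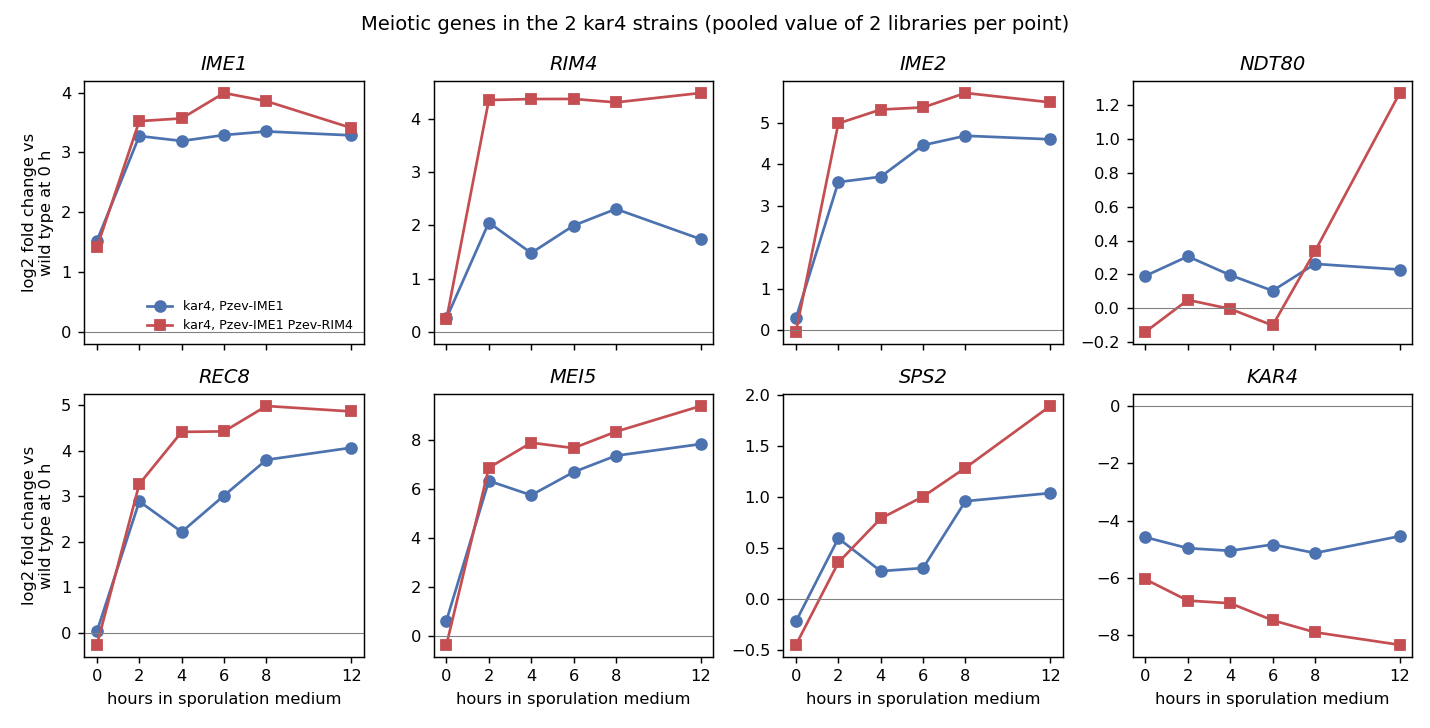
Level of 8 genes by hour in *kar4*Δ/Δ with Pzev-*IME1* (circles) and with Pzev-*IME1* and Pzev-*RIM4* (squares), as log2 fold change relative to the wild type strain without Pzev promoters at 0 h. Each point is the authors' value from 2 replicates, without error. The vertical axes differ between panels. *RIM4*, *IME2* and *REC8* lie higher with both promoters from 2 to 8 h, and *NDT80* lies apart at 12 h alone.

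The letters of the URS1 core, GGCGGC on either strand, were found in the 500 bases before the start codon of 567 of 5882 genes (9.64%). They were present in 8 of 9 first-wave genes, 21 of 38 second-wave genes (55.3%) and 8 of 13 axis and cohesin genes (61.5%), among them *REC8*, *HOP1* and *MEK1*, and also in *IME2* and *MEI5*. Shares were lower in the other early lists, at 4 of 12 double-strand break, 5 of 14 strand exchange and 5 of 16 synaptonemal complex and crossover genes. DNA replication had 3 of 41 (7.32%). Outside the early lists, 10 of 24 acetate, glyoxylate and gluconeogenesis genes (41.7%) had the letters. A match is a description of letters and says nothing of binding. *HOP1*, whose window is printed above, had differences of 0.56, 1.71, 0.76 and 0.64.

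Middle meiotic genes did not follow. *NDT80* was at 0.31, 0.20, 0.10 and 0.26 with Pzev-*IME1* and at 0.05, -0.00, -0.10 and 0.34 with both promoters, so that both strains stayed near the 0 h wild type reference through 8 h and the mean difference was -0.15, or 0.18 with the 0 h difference taken away. Over 45 Ndt80p-dependent middle genes the median difference was -0.24, 0.00, 0.03 and 0.18. The counts of higher genes were 6, 2, 3 and 3 and those of lower genes 9, 6, 3 and 1. In wild type the difference between strains with the same promoters had medians of 0.96, 2.14, 4.31 and 6.30. There 22, 34, 41 and 44 of the 45 genes were higher, where 9.16%, 10.7%, 13.4% and 19.1% of all genes were. The wild type strains were already apart at 0 h, with 9 of the 45 higher, a median of 0.33, and 934 of 6496 genes higher. In the strain list the wild type diploids also differ in activator copies, *his3* and *lys2*. *SPS2*, a spore wall protein made after Ndt80p, had differences of -0.24, 0.51, 0.70 and 0.33, against a mean of 5.27 in wild type. *GAS4*, an enzyme of spore wall glucan, had -0.90, -0.18, -0.46 and 0.10, against a mean of 4.26 in wild type.

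A few genes of the middle list stood apart from its median. *CLB1*, a cyclin described below with the cycle genes, held the list's highest value at 2 h, 3.46, and its lowest at 4 and 6 h, -2.64 and -3.11. *CLB1* was already 2.44 higher at 0 h. *AMA1*, an activator of the anaphase-promoting complex that is also a first-wave gene, had differences of 0.87, 1.62, 1.03 and 1.10. *MPC54*, a component of the meiotic spindle pole plaque, had 0.60, 2.05, 1.17 and 1.09. In the other direction *CRR1*, a spore wall glycosidase, had -2.26, -1.78, -1.20 and -1.08, and it was below the 0 h reference at these hours with both promoters. *SPO73*, needed for the prospore membrane, had -1.51, -0.90, -0.94 and -0.78. The letters CACAAAA, the core of the Ndt80p site, were in the windows of 28 of the 45 middle genes (62.2%) and of 12.6% of all genes, on either strand.

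The list medians for spore wall (30 genes), prospore membrane (23) and late sporulation (13) were between -0.23 and 0.49 at the 4 hours. Single genes lay far from them: at 2 h the late sporulation list ran from -3.56, *SPS100*, to 3.66, *CWP1*. *CWP1* was already 2.52 higher at 0 h. *CDC5*, the polo kinase that drives exit from prophase and also acts in mitosis, differed in both directions, with values of 1.69, -1.16, -0.84 and -0.13. At 0 h *CDC5* was already 1.18 higher. *CLB3*, a cyclin whose translation is repressed by Rim4p, had 0.71, 0.41, 0.77 and 1.00, and it stayed just under 2-fold at 8 h.

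The mRNA methylation genes were mostly above 0. *IME4*, the catalytic subunit, had differences of 0.75, 1.12, 0.98 and 0.58, and *VIR1*, another subunit, had 0.98, 1.27, 1.07 and 1.25. *MUM2* and *SLZ1*, further members, stayed below 2-fold, with mean differences of 0.40 and 0.61. *DYN2*, a light chain shared with dynein, was lower at all 4 hours, with -1.17, -1.10, -1.38 and -1.29. With the length trend removed, 0 of the 6 methylation genes were lower past 2-fold at any of these hours. Then 0, 2, 0 and 0 of the 6 were higher. *RME1*, a repressor of *IME1*, was at -0.18, -0.38, 0.89 and 0.49 with Pzev-*IME1* and at 1.15, 0.91, 0.72 and 0.99 with both promoters. *RME1* was thus more than 2-fold higher at 2 and 4 h and within 2-fold at 6 and 8 h.

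**Figure D2:**
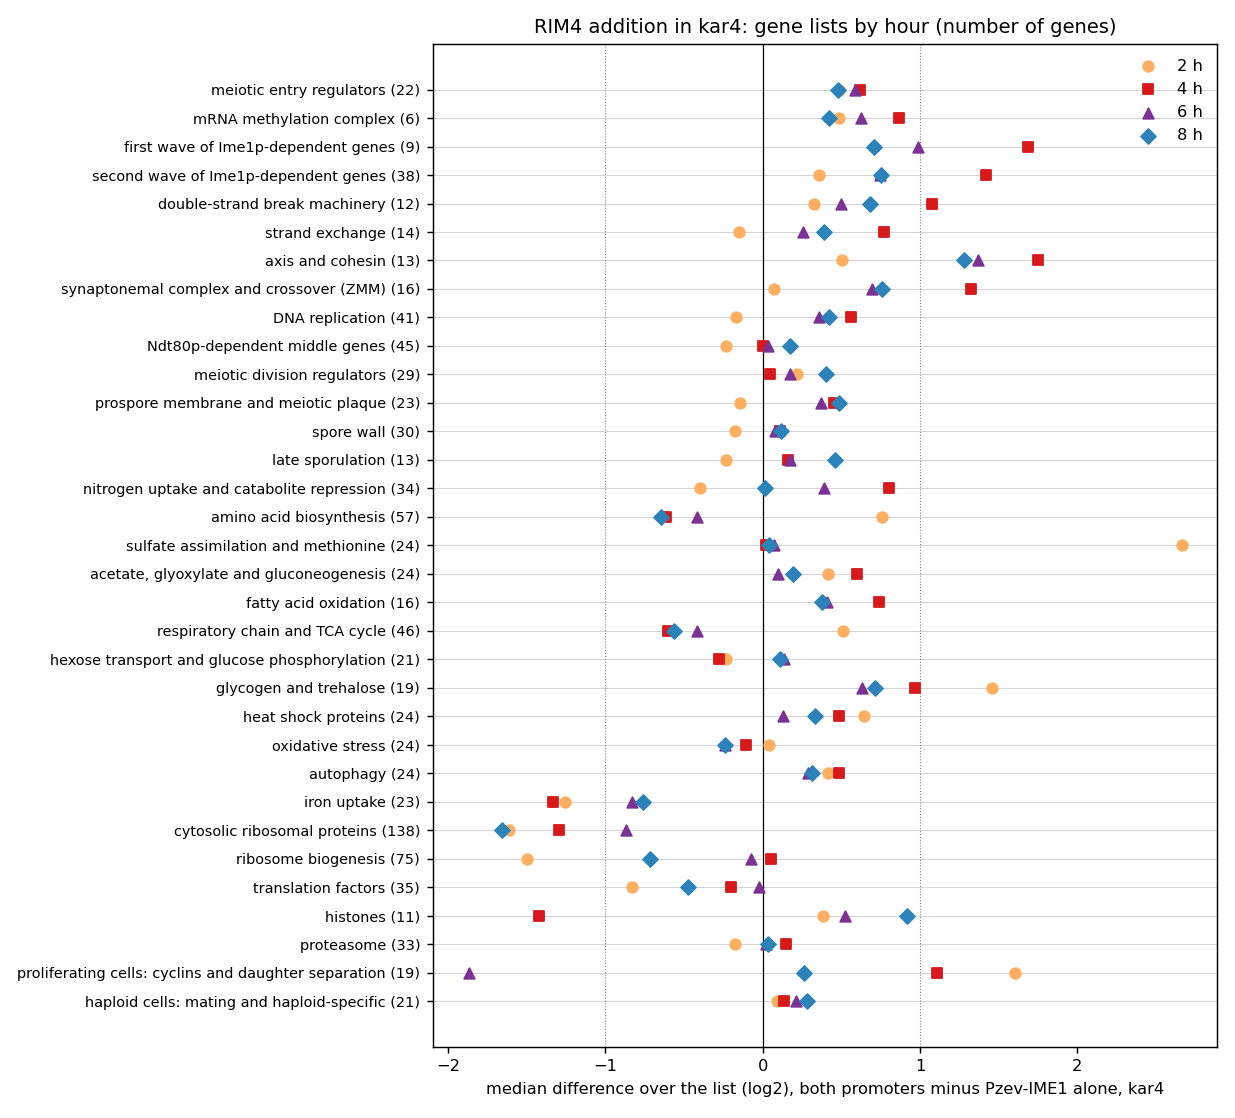
Median difference (log2, both promoters minus Pzev-*IME1* alone, *kar4*Δ/Δ) of 33 gene lists at 2, 4, 6 and 8 h, with the number of genes in brackets and dotted lines at 2-fold. Early recombination lists lie farthest right at 4 h, the sulfate list stands at 2.67 at 2 h and near 0 later, and ribosomal protein genes lie left of 0 at all 4 hours.

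Genes that take up sulfate and make methionine had the largest list median of the 33 lists, at 2 h. With *RIM4* added, 23 of 24 were higher at 2 h, with a median of 2.67, and the medians at 4, 6 and 8 h were 0.02, 0.07 and 0.04. The median level with Pzev-*IME1* was 0.04 at 2 h and 2.70 at 4 h, and with both promoters it was already 2.70 at 2 h. *MET17*, the sulfhydrylase that makes homocysteine, was at 0.58, 6.02, 5.57 and 5.26 with Pzev-*IME1* and at 5.85, 5.79, 5.33 and 5.29 with both promoters. Both strains therefore reached a similar level, and they differed by over 2-fold at 2 h alone, by 5.27. *MET5* and *MET10*, subunits of sulfite reductase, differed by 4.83 and 3.84 at 2 h and by at most 0.78 and 0.63 later. *MET6*, methionine synthase, differed by 4.74 at 2 h, *MET3*, ATP sulfurylase, by 4.08, and *SUL1*, a sulfate permease, by 3.34 and again by 1.79 at 4 h. *SEO1*, a putative permease outside the list, had 4.01 at 2 h and 0.77, 0.66 and 0.15 later. *met15* is another name of *MET17*, the gene that the strain list gives as heterozygous in the diploid without Pzev-*RIM4*. Any part of that allele in the 2 h result was not tested. The letters CACGTG were present in the windows of 16 of 24 genes of the list (66.7%) and of 6.21% of all genes, and AACTGTGG, the core of the Met31p and Met32p site, in 13 of 24 (54.2%) and 1.68%, both on either strand.

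Amino acid biosynthesis genes were also higher at 2 h and then lay lower. Of 57 genes, 25 were higher at 2 h, where 7.47% of all genes were. At 4, 6 and 8 h 15, 3 and 16 were lower, where 6.7%, 5.62% and 6.87% of all genes were. The 6 h count was thus near the share of all genes. *HIS4*, of histidine synthesis, had differences of 2.50, -1.93, -0.83 and -1.96. *LYS20*, homocitrate synthase, was below its partner value at each hour, with -0.56, -2.41, -1.53 and -2.01. *ODC2*, a mitochondrial oxodicarboxylate carrier that serves lysine synthesis, had 2.33, -1.96, -1.44 and -1.63. *LEU1*, of leucine synthesis, went the other way, with 0.53, 1.38, 1.20 and 0.51.

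Nitrogen genes were mixed at 2 h and higher at 4 h. Of 34 genes, 9 were lower and 5 higher at 2 h, and 13 were higher and none lower at 4 h, with medians of -0.40 and 0.80. *MEP2*, the ammonium permease, was at 5.26, 1.70, 3.87 and 5.44 with Pzev-*IME1* and at 1.78, 4.47, 4.78 and 5.38 with both promoters. Its difference went from -3.48 at 2 h to 2.77 at 4 h and to -0.06 at 8 h. *DUR1,2*, the urea amidolyase, had -0.28, 2.86, 1.59 and 0.98, and *CAR2*, of arginine breakdown, had 3.10, 1.34, 0.96 and 0.75. The letters GATAAG were in 24 of 34 windows (70.6%) and in 22.7% of all, on either strand.

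Reserve carbohydrate genes were higher, most of all at 2 h. Of 19 glycogen and trehalose genes, 15, 9, 2 and 4 were higher at the 4 hours and none was lower, with medians of 1.46, 0.97, 0.63 and 0.72. At 0 h 17 of the 19 were already above 0, with a median of 0.56. With the length trend removed, 14, 3, 1 and 1 were higher, with medians of 1.30, 0.46, 0.22 and 0.45. *GLC3*, the glycogen branching enzyme, was at -2.54, -1.63, -0.99 and -1.01 with Pzev-*IME1* and at -0.51, -0.53, 0.39 and 0.04 with both promoters, so it was higher at all 4 hours. *PIG2* and *GAC1*, regulatory subunits for the phosphatase that acts on glycogen synthase, had mean differences of 1.82 and 1.86. *GAC1* had 0.54 at 2 h and 2.40, 2.68 and 1.84 afterwards. *GIP2*, a related phosphatase subunit, was higher at all 4 hours, at 1.28, 1.58, 1.26 and 1.21. *TSL1*, of trehalose synthesis, had 2.48, 1.27, 0.68 and 0.97.

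Iron uptake genes were lower. Of 23 genes, 13, 12, 9 and 9 were lower at 2, 4, 6 and 8 h and 1 was higher, *FIT1* at 8 h, named after its value was seen. The medians were -1.26, -1.33, -0.83 and -0.76. *FIT2*, a cell wall mannoprotein that retains siderophores, was at -1.39, -0.23, -2.61 and -3.17 with Pzev-*IME1* and at -5.06, -5.54, -4.52 and -4.78 with both promoters. All 4 values with *RIM4* added were below all 4 without it. *ARN2*, a siderophore transporter, had differences of -3.10, -4.40, -2.14 and -2.21. *TIS11*, which promotes the decay of mRNAs for iron-using proteins when iron is low, had -3.72, -3.95, -1.26 and -1.19. *FTR1* and *FET3*, the permease and oxidase of high-affinity uptake, had mean differences beyond 2-fold as well, with -2.16, -2.66, -2.39 and -1.75 for *FTR1* and -1.96, -3.46, -1.02 and -1.34 for *FET3*. At 0 h *FIT2*, *ARN2* and *FET3* were above the strain without Pzev-*RIM4*, by 1.28, 0.62 and 0.65.

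The difference extended to metal uptake outside the siderophore group. *FRE1*, a ferric and cupric reductase, was at 1.31, 1.52, 0.42 and 0.12 with Pzev-*IME1* and at -2.48, -2.32, -1.87 and -1.92 with both promoters. *CTR1*, the high-affinity copper transporter, which is not in the iron list, was at 0.07, 0.43, -0.54 and -1.00 and at -3.27, -3.40, -3.05 and -3.23. The groups of 4 values did not overlap for *FRE1* or *CTR1*, but the hours are not replicates and the share of all genes that separate so was not counted. In wild type the mean difference of *FIT2* was -4.26 against -3.12 in *kar4*Δ/Δ, and the gap was widest at 8 h, at -5.13 against -1.61, while the mean for *CTR1* was 0.57 against -2.98. The differences between genotypes were not tested. The letters TGCACCC were in the windows of 19 of 23 iron genes (82.6%) and of 2.33% of all genes, on either strand.

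Ribosomal protein genes were lower as a class. Of 138 cytosolic ribosomal protein genes, 130, 116, 50 and 133 were lower at 2, 4, 6 and 8 h and none was higher, with medians of -1.62, -1.30, -0.87 and -1.66. The median level with Pzev-*IME1* was 0.38, 0.06, -0.20 and -0.18, and with both promoters it was -1.24, -1.22, -1.03 and -1.82. At 0 h the strains were alike in this list, with a median difference of -0.06 and 0 genes past 2-fold. *RPL1B* was at -2.26, -2.58, -3.12 and -3.04 with Pzev-*IME1* and at -4.89, -5.02, -4.87 and -5.64 with both promoters. *RPS22B* had differences of -1.96, -3.27, -1.72 and -2.54, *RPL41A* -1.89, -2.53, -1.88 and -2.95, and *RPL11B* -2.50, -2.42, -1.90 and -2.36. Most yeast ribosomal protein genes have a near-identical copy, so the split of reads between copies is uncertain for these 4.

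Ribosome biogenesis genes differed at 2 h above all. Of 75 genes, 67 were lower at 2 h, with a median of -1.50, and 0, 3 and 15 were lower at 4, 6 and 8 h. *NSR1*, a nucleolar protein of rRNA processing, was at 1.83, 0.50, 0.33 and 0.26 with Pzev-*IME1* and at -0.54, -0.15, -0.59 and -1.23 with both. Of 35 translation factors, 12, 3, 3 and 6 were lower, 3 of them at all 4 hours, where 11.2%, 6.7%, 5.62% and 6.87% of all genes were lower. *TEF1* and *TEF2*, a pair of copies that encode elongation factor EF-1 alpha, had mean differences of -1.55 and -1.33. In contrast, none of 33 proteasome genes was past 2-fold in either direction at any of the 4 hours.

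Genes of the mitotic cycle differed in a way that turned over with the hour. Among 19 genes for cyclins and daughter-cell separation, 15 were higher and none lower at 2 h, 10 were higher and 5 lower at 4 h, 13 were lower and none higher at 6 h, and none was past 2-fold at 8 h. At 0 h, 14 of the 19 were already higher, with a median of 1.87. Taking away the 0 h difference turned the list medians at 2 and 4 h from 1.61 and 1.11 to -0.29 and -0.96. *EGT2*, a cell wall enzyme of daughter separation, was at -2.76, -3.72, 0.92 and -2.67 with Pzev-*IME1*, a single high value at 6 h, and at 0.36, -0.63, -3.10 and -3.14 with both promoters. Its differences were 3.12, 3.08, -4.02 and -0.47. *CTS1*, the chitinase that frees the daughter, had 1.96, 2.83, -1.93 and 0.52, and *DSE1* and *DSE2*, daughter-specific genes, had -2.75 and -3.34 at 6 h.

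Other cycle genes turned earlier. *PCL1*, a cyclin of late G1, was at -1.81, 2.00, -0.59 and -1.91 with Pzev-*IME1* and at 0.49, -2.06, -2.06 and -1.29 with both promoters, so the difference was lowest at 4 h, at -4.07. *CLB1*, a mitotic cyclin, had 3.46, -2.64, -3.11 and -0.07, and *CIS3*, a cell wall protein, had 3.32, -4.61, -2.49 and -0.36. Before induction, at 0 h, *CLB1* was already 2.44 higher with both promoters and *CIS3* 3.03 higher. With both promoters the levels of *PCL1*, *CLB1* and *CIS3* were higher at 2 h than at 4 h, and with Pzev-*IME1* alone they were higher at 4 h than at 2 h. Histone genes were lower at 4 h, where 8 of 11 were past 2-fold with a median of -1.43, and higher at 8 h, where 5 were past 2-fold with a median of 0.92. *HTB2*, a histone H2B gene, was at -0.68, 2.17, -0.10 and 0.14 with Pzev-*IME1* and at 0.85, 0.25, 1.55 and 2.39 with both promoters. At 0 h *HTB2* was already 2.92 higher with both promoters, and 3 of the 11 histone genes were past 2-fold, with a list median of 0.11. The letters ACCAGC were in 7 of 19 windows of the cycle list (36.8%) and in 13.4% of all, on either strand. The part of cycling cells in the other results of 2 to 6 h was not tested.

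**Figure D3:**
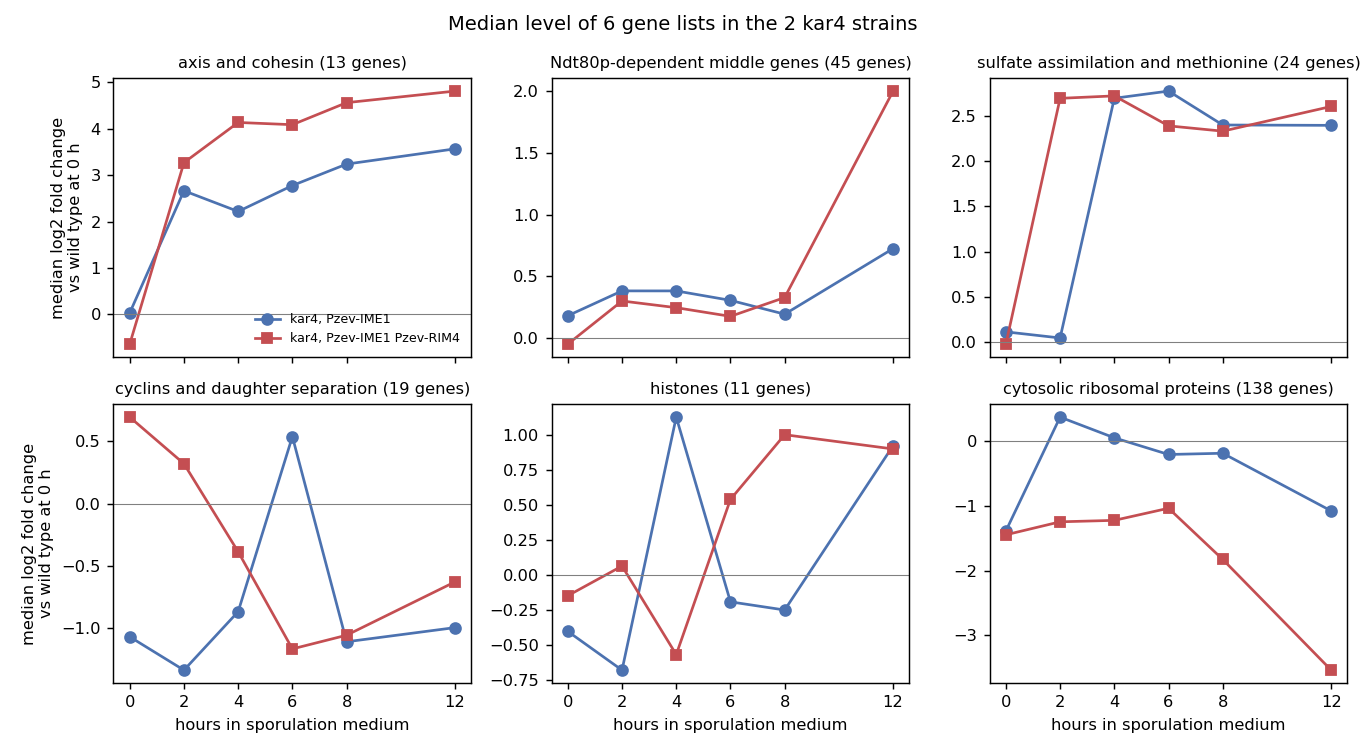
Median level (log2 fold change against wild type at 0 h) of 6 gene lists by hour in *kar4*Δ/Δ with Pzev-*IME1* (circles) and with both promoters (squares), the number of genes in brackets. The sulfate list reaches 2.70 at 2 h with both promoters and at 4 h with Pzev-*IME1*, and the cycle list with Pzev-*IME1* is highest at 6 h, where it is at 0.54.

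Whole profiles were compared between hours as a description. The root mean square difference over 6496 genes between the strain with both promoters at 2 h and the Pzev-*IME1* strain was 0.84 at the same hour, 0.63 at 4 h, 0.53 at 6 h and 0.61 at 8 h. The profile at 4 h with both promoters was nearest to 8 h with Pzev-*IME1*, at 0.49, against 0.70 at the same hour. The profile at 6 h was also nearest to 8 h, at 0.54, and that at 8 h was nearest to 12 h, at 0.54 against 0.64 at the same hour. At 0 h and at 12 h the nearest hour was the same hour, at 0.48 and 0.79. Each of the 4 hours compared was thus nearest to a later hour of the strain without Pzev-*RIM4*. These distances share all genes and one reference and have no replicate error. In wild type the strain with both promoters was nearest to 12 h of Pzev-*IME1* at each of these hours, with distances of 0.76, 0.75, 0.88 and 1.21. At 0 h it was already nearest to 4 h, at 0.83 against 0.90 at the same hour.

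**Figure D4:**
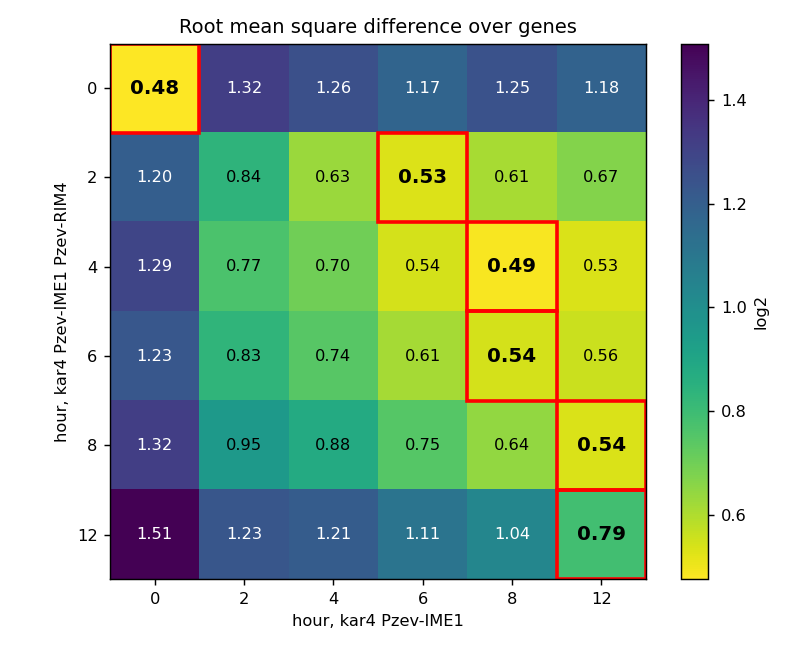
Root mean square difference (log2) over 6496 genes between *kar4*Δ/Δ with both promoters (vertical, by hour) and *kar4*Δ/Δ with Pzev-*IME1* (horizontal, by hour). The smallest value of each line is framed. It lies at 6 h for 2 h, at 8 h for 4 and 6 h, and at 12 h for 8 h.

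Genes past 2-fold at all 4 hours were few. The 30 that were higher (0.462% of genes) include 26 with a standard name, with *RIM4* first. The 30 already had a median difference of 0.56 at 0 h, with 5 past 2-fold, where *CHC1* was at 1.13 and *HXT13* at 0.92. The next were *PIG2*, then *ULP2*, a SUMO protease, at 1.26, 2.16, 1.43 and 1.45. *MDS3*, a negative regulator of early meiotic genes, had a mean difference of 1.41, and *CHC1*, the clathrin heavy chain, had 1.39. *HXT13*, listed as a hexose transporter and close in sequence to other family members, had 1.37, *YAK1*, a kinase of the glucose and nutrient response, also had 1.37, and *TVS1* had 1.36. *VPS13*, a lipid transfer protein, and *SPO14*, a phospholipase D, are both needed for the prospore membrane. They were higher at 4 hours, with means of 1.29 and 1.23. No other gene of the 23 in the prospore membrane list was, and the list medians were -0.15, 0.45, 0.37 and 0.49. *VPS13* is 9435 bases long and *SPO14* 5052. Genes from 4500 bases upward, apart from ribosomal protein genes, had median differences of 0.53, 0.60, 0.67 and 0.72 at 2, 4, 6 and 8 h. The 91 that were lower (1.4%) include 49 ribosomal protein genes, 53.8% of them against 2.12% of all genes, and 7 iron uptake genes. In wild type, 68 of these 91 genes were also lower at all 4 hours, where 7.36% of all genes were, and 3 of the 30 were higher, where 4.29% were. At 12 h in *kar4*Δ/Δ, 83 of the 91 were lower (9.13% of all genes) and 15 of the 30 higher (6.23%).

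Gene length moved with these sets. The median annotated length was 3228 bases for the higher genes and 691 for the lower genes, against 1200 for all genes with a length. Apart from ribosomal protein genes, the median difference at 8 h was -0.41 for genes under 300 bases, 0.04 for 1000 to 2000 bases, 0.67 for 3000 to 4500 bases and 0.72 from 4500 bases upward. The rank correlation of difference and length over 5745 genes, which are not independent replicates, was 0.31, 0.48, 0.53 and 0.52 at 2, 4, 6 and 8 h. It was already 0.47 at 0 h, before induction. In wild type the same values were 0.14, 0.22, 0.16 and 0.05. Differences in length also go with RNA integrity and library preparation, and their part in these results was not tested.

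With the median of each length class taken away, an alternative chosen after seeing the data, 16 genes were higher and 56 lower at all 4 hours. Ribosomal protein genes then had medians of -1.46, -1.10, -0.64 and -1.45 and the axis and cohesin genes 0.19, 1.62, 0.96 and 0.84, with 0, 11, 5 and 3 of 13 higher. The counts of lower ribosomal protein genes were then 127, 83, 26 and 126. Second-wave genes higher at 6 and 8 h were 7 and 7 of 38, and synaptonemal complex and crossover genes 2 and 2 of 16. In the sulfate list 23 of 24 genes were higher at 2 h after this step. Other genes within the length range of ribosomal protein genes, 78 to 1662 bases, had median differences from -0.16 to -0.13, and 10.2% of them were lower at 2 h and 5.84% at 8 h.

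**Figure D5:**
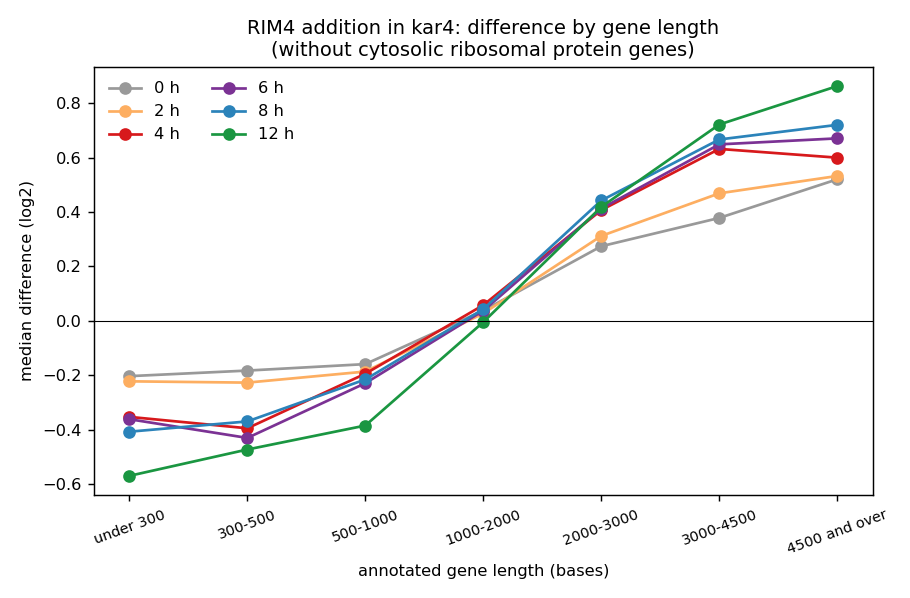
Median difference (log2, both promoters minus Pzev-*IME1* alone, *kar4*Δ/Δ) by class of annotated gene length in bases, one line per hour, without ribosomal protein genes. All 6 lines rise with length, including that of 0 h, which goes from -0.20 to 0.52.

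Some single genes moved most between the first and the last hour. The difference of *SPS100*, a spore wall maturation gene that is also induced on starvation, went from -3.56 at 2 h to 0.70 at 8 h, that of *ANS1* from -3.66 to -0.09 and that of *HUG1*, of the DNA damage response, from -3.22 to -0.06. *PDC6*, a minor pyruvate decarboxylase, went from -2.72 to 0.46. In the other direction *MET17* went from 5.27 to 0.03. At 6 h *JLP1*, a sulfonate dioxygenase, and *SUT1*, a regulator of sterol uptake, stood at 2.23 and 2.15, and *SIP18*, a protein of the desiccation response, was at -2.78 at 6 h and -2.60 at 8 h. *SIP18* was below its partner value at 2 h as well, by -2.66, and equal at 4 h, at -0.01.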

How the data were processed

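Poly(A) RNA was sequenced in 72 libraries (paired reads), 2 biological replicates in each of 36 conditions, from samples taken over time courses of sporulation that include 0 h. Reads were aligned to sacCer3 with BWA and compared in DESeq2 per the submitters' processing notes, and counted per gene with htseq-count per the study's methods. Versions and strand setting are not given in the sources used here. Values in the deposited table are log2 fold changes that the authors computed per gene and condition, relative to the wild type strain without Pzev promoters at 0 h. It has 36 named value columns, and 16 columns without a name were not used. Replicates are combined, so depth and counting precision are unknown.

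Of 6660 genes, 164 lacked a value in a column and were left out, which left 6496. Differences between columns of the same hour were taken in Python 3 with pandas and numpy, so that the reference cancels if fold changes are additive. A size of 2-fold, 1 on the log2 scale, was counted, with no test. The tests written for values per library could not be run. The counting and scaling steps were tested on simulated data. Annotation and sequence are from RefSeq R64, the assembly of sacCer3, in which 5986 identifiers matched. Lengths run from start to end of the annotated gene. Overlapping and antisense genes may share reads.

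The libraries were chosen by their labels. Both that choice and the choice of the 34 gene lists were made with earlier results of these data known. Of 991 list names, 2 were not matched to an identifier and 4 more lacked a value in a column, and each list was counted over its genes complete in all columns. Genes are named by rule: the 10 highest and 10 lowest mean differences among genes past 2-fold at all 4 hours, the 5 highest and 5 lowest of each hour, genes that the study names, the 4 members of each list with the largest mean difference, strain markers, and the 5 whose difference rose or fell most from 2 to 8 h. *HOP1*, *FTR1*, *FET3*, *VPS13* and *SPO14* were added as examples after their values were seen, where the rule did not give them. The alternatives were other scalings, the 0 h difference taken away, protein-coding genes alone, 4-fold, missing-value handling, leaving out an hour and, chosen after seeing the data, removal of the length trend and of ribosomal protein genes.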

Additional observations from a re-analysis of the deposited data

Results flagged for a closer look

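At 2 h the sulfate and methionine list lay in opposite directions in the genotypes when *RIM4* was added. The median difference over 24 genes was 2.67 in *kar4*Δ/Δ and -1.87 in wild type. At 4 h the histone list did so too, with a median over 11 genes of -1.43 in *kar4*Δ/Δ and 1.96 in wild type. The differences between genotypes were not tested, since each condition has 1 combined value.

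Outside the hours compared, *NDT80* in *kar4*Δ/Δ at 12 h was 1.05 higher with *RIM4* added, at 1.27 against 0.23. This lies outside the range of the 4 earlier hours, where the difference was between -0.26 and 0.08, and the combined values give it no replicate check. The study itself shows *NDT80* counts of these strains with the SD of 2 replicates.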

How the results depend on the processing

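No paired analysis was possible because each deposited column combines both replicates, and for the same reason fits with a replicate left out and low-value filters or pseudocounts were not run. Centring the columns, taking away the 0 h difference, protein-coding genes alone, and genes complete in the 8 columns moved none of the 10 counts by over 1.5 times. With quantile normalization 231 genes were higher at 4 h, 127 higher and 266 lower at 8 h, and 13 higher and 38 lower at all 4 hours. With columns set to the same spread 116 were higher at 8 h, and 19 were higher and 57 lower at all 4 hours. With the length trend removed 162 and 156 were higher at 6 and 8 h, and 16 were higher and 56 lower at all 4 hours. Without ribosomal protein genes 42 were lower at all 4 hours. At 4-fold, 88, 34, 4 and 4 genes were higher and 102, 58, 31 and 51 lower at 2, 4, 6 and 8 h, and 1 was higher and 5 lower at all 4. The hours decide the repeated sets. Without the 2 h columns 95 were higher and 137 lower at the remaining hours, without 4 h 46 were higher, and without 6 h 168 were lower.

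The mean difference of *RIM4* was 1.70 with quantile normalization, and that of *IME2* was 0.65 and 0.69, under 2-fold, with quantile normalization and with equal spread. *NDT80* stayed within 2-fold in all settings run, but less its 0 h value it was 0.18, with the opposite sign. The mean of *CIS3* was 0.16 without 4 h, that of *MET17* -0.14 without 2 h and that of *HSP32* 0.92 less its 0 h value, each with the opposite sign. The cycle list had medians of -0.29 and -0.96 at 2 and 4 h once the 0 h difference was taken away, also the opposite sign. The cause of these shifts was not tested. With no counts in the table, what depth limits is unknown.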

Other observations

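At 12 h, outside the hours compared, the gap for middle genes between the *kar4*Δ/Δ strains was wider. Of 45 Ndt80p-dependent genes, 16 were higher with *RIM4* added and none lower, with a median level of 2.00 against 0.72. Ribosomal protein genes had their lowest median difference there, -2.37, with 134 of 138 lower. *GAS4*, near 0 at 8 h with a difference of 0.10, differed by 1.32 at 12 h, and *YSW1*, a spore-specific gene, went from 0.64 to 1.32.

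Of the remaining lists, fatty acid oxidation had medians of 0.38, 0.74, 0.41 and 0.38 at 2, 4, 6 and 8 h, with 1, 5, 2 and 0 of 16 genes higher. At 0 h 13 of the 16 were already above 0, with a median of 0.30. With the length trend removed, 0, 1, 0 and 0 were higher. *FOX2*, a peroxisomal enzyme of fatty acid oxidation, had differences of 0.78, 1.30, 1.07 and 0.97, and of 0.75 already at 0 h. Autophagy genes had medians from 0.29 to 0.49, and *ATG9*, the membrane protein of autophagosome formation, had 0.97, 1.59, 1.39 and 1.43. Respiratory chain and TCA cycle genes went from a median of 0.51 at 2 h to -0.60, -0.42 and -0.56. Of these 46 genes 8 were higher at 2 h, where 7.47% of all genes were, and 11 lower at 4 h, where 6.7% were. With the length trend removed, 9 of the 46 were higher at 2 h and 2 were lower at 4 h. *HSP26*, a small heat shock protein, had differences of 1.75, 2.07, 0.52 and 0.29 over the 4 hours. Of 21 genes for hexose transport and glucose phosphorylation, 7 were lower and 3 higher at 2 h, where 11.2% and 7.47% of all genes were. The hexose transporter genes *HXT2* and *HXT7*, the second with near-identical copies, differed by -2.54 and -2.72 at 2 h.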
